A study of Mus musculus with 7 samples.

Results

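Iron handling, the iron hormone hepcidin and the entry step of heme synthesis were followed through 10 genes in mouse liver: *Hamp*, *Hamp2*, *Tfrc*, *Tfr2*, *Fth1*, *Ftl1*, *Slc40a1*, *Hfe*, *Id1* and *Alas1*. They were chosen by symbol and by no rule on measured values, but with earlier results of these data known. All 10 were found among the 14851 Ensembl identifiers of the deposited table, and all 10 passed the filter on low values that left 12545 genes for testing. The livers were those of 4 mice with the genotype *Albumin-Cre; p53 FL/FL* (FL) and of 3 with *Albumin-Cre; p53 WT/WT* (WT). Each mouse is a separate animal, and the comparison asks how liver gene expression depended on p53 early after a toxic injury.

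Both groups were male C57BL/6J (N10) mice of about 70 days. They received 1 morning intraperitoneal dose of carbon tetrachloride (CCl4), a solvent that hepatocytes convert into reactive radicals, at 1 mL/kg from a 20% stock in corn oil, and were sampled 8 h later. The *Albumin* promoter drives Cre recombinase in hepatocytes, and both groups carry this transgene. In FL mice Cre removes floxed *Trp53*, the gene for p53, from hepatocytes, while the other cells of the liver keep it. According to the study's methods, some mice of both genotypes could also carry a *Rosa26 LSL-tdRFP* reporter. No liver without CCl4 is part of the comparison, so it shows differences between genotypes and not responses to the toxin. The source names of the WT livers begin alike and those of the FL livers begin differently, so genotype and whatever the source names record cannot be told apart.

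Hepatocytes take up iron bound to transferrin, store it in ferritin and release the hormone hepcidin, which makes the iron exporter ferroportin disappear from cell surfaces and so lowers iron in the blood. Hepcidin transcription follows body iron through bone morphogenetic protein (BMP) signals, SMAD transcription factors and the sensors HFE and transferrin receptor 2, and follows inflammation through interleukin-6 and STAT3. Inside cells, iron regulatory proteins bind a stem-loop in some mRNAs, the iron-responsive element (IRE), when iron is short: this blocks translation when the loop lies before the coding sequence and protects the mRNA when it lies after it. The liver also makes much heme for cytochrome P450 enzymes, and ALAS1 is the rate-limiting step.

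The IREs are shown because they divide the genes by the kind of control they can receive. A search of GENCODE vM21 transcripts (GRCm38) for a 27-base stem-loop, with a 6-base loop that starts CAGTG, 5 paired bases in the upper stem and at least 4 in the lower, found it in 4 of the 10 genes. Over all 21901 protein-coding genes, 24 (0.110%) held a match. The loops are in capitals, and a match is a description of the letters, not a measured site. The ferritin and ferroportin loops lie in the 5' UTR, at chr19:9982733-9982759 (plus strand) for *Fth1*, chr7:45459780-45459806 (minus strand) for *Ftl1* and chr1:45925466-45925492 (minus strand) for *Slc40a1*. In *Tfrc* the search found 4 loops in the 3' UTR on the plus strand. The first at chr16:32631220-32631246 and the last at chr16:32631711-32631737 are printed.
Fth1: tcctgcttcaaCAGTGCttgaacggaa
Ftl1: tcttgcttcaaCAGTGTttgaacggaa
Slc40a1: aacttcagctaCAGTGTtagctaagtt
Tfrc, first: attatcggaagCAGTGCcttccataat
Tfrc, last: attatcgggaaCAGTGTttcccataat

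The table holds read counts per gene that the authors divided by size factors and rounded, here called normalised counts. They summed to 15851380 to 16554427 per FL liver and 14123213 to 15538815 per WT liver. The spacing of the low values gave estimates of 11.9 to 19.5 M reads in FL livers and 15.4 to 17.1 M in WT livers. *Trp53* itself was at 131, 130, 217 and 110 normalised counts in FL livers and at 876, 688 and 831 in WT livers, with no overlap, so its levels followed the labels. WT replicate 2 and FL replicate 3 stood apart from the other 5 livers on the first principal component, which held 66.7% of the variance (82.01 and 29.24 against −25.61 to −19.08). Fold changes without these 2 livers are therefore given for each of the 10 genes. The genotype comparison used limma, with log2(normalised count + 1) as input and p-values adjusted by the Benjamini-Hochberg method over the 12545 genes, and by exact two-sided permutation tests over the 35 splits of the livers, for which the smallest possible p is 0.0286.

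None of the 10 genes passed the adjusted threshold of 0.05, and in limma each had an adjusted p of 0.999. Over all tested genes the number that passed was 2 (0.0159%). The study's own DESeq2 comparison of these livers reported more genes at an adjusted p under 0.05, so this number depends on the method. At an unadjusted p under 0.05, 1 of the 10 genes passed, *Hamp*, beside 401 of all genes (3.2%). In 2 of the 10, *Hamp* and *Tfr2*, every FL liver was above every WT liver, beside 348 of all genes (2.77%), and in none was every FL liver below. The log2 fold change was positive for 7 of the 10 and for 51.6% of all genes, with medians of 0.15 and 0.0069. The plot by liver shows all these values.

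**Figure D1:**
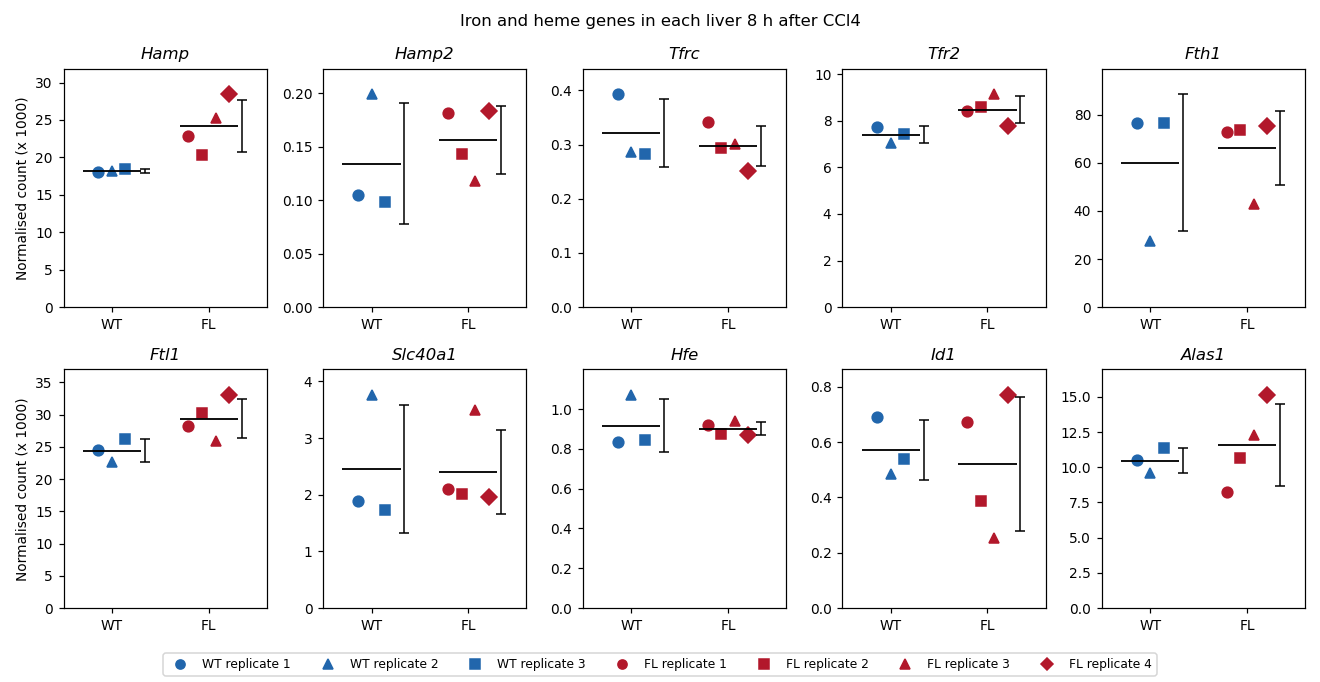
Normalised count (in units of 1000, linear axes from 0) of each of the 10 genes in each WT (blue) and FL (red) liver 8 h after CCl4; lines mark the group means and bars the SD (n = 3 WT, n = 4 FL). *Hamp* lies at 20346 to 28452 in FL livers, above all 3 WT livers, while WT replicate 2 and FL replicate 3 (triangles) lie away from the other livers for *Fth1* and *Slc40a1*, and WT replicate 2 alone for *Hfe*.

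Levels per kilobase of transcript spread these genes over 3 powers of 10, as the plot of levels shows. The order by the mean of the 7 livers was *Fth1* (68483 normalised counts per kilobase), *Hamp* (52746), *Ftl1* (28145), *Alas1* (3595), *Tfr2* (2609), *Slc40a1* (719), *Id1* (581), *Hamp2* (336), *Hfe* (254) and *Tfrc* (62.8). The lowest liver of *Hamp* lay above the highest of *Ftl1*, and the same held for *Ftl1* over *Alas1*, *Tfr2* over *Slc40a1* and *Hfe* over *Tfrc*. The other neighbours in this order overlapped between livers. Thus ferritin and hepcidin transcripts led, and the classical transferrin receptor came last in both genotypes.

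**Figure D2:**
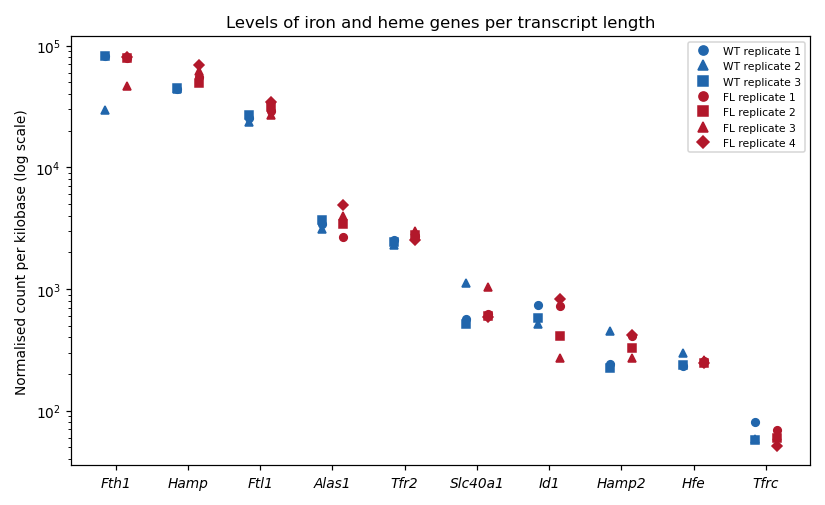
Normalised count per kilobase of transcript (log axis) in each liver, with the genes ordered by their mean; blue is WT and red is FL. *Fth1* and *Hamp* reach 82546 and 69395 in their highest livers, and *Tfrc* lies between 51.5 and 80.4.

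*Hamp* encodes hepcidin and lies on chr7:30942368-30944032 (minus strand, GRCm38). Its normalised counts were 22812, 20346, 25213 and 28452 in FL livers and 17996, 18130 and 18431 in WT livers. The WT livers lay close together and every FL liver lay above them, with FL replicate 4 highest. Mean levels were 24206 ± 3459 (SD, n = 4) in FL and 18186 ± 223 (SD, n = 3) in WT livers, a ratio of 1.33. In limma the log2 fold change was 0.40 (SE 0.14, 95% interval 0.07 to 0.73, adjusted p = 0.999), which ranked *Hamp* 181 among all genes by p. The exact permutation test gave p = 0.0571. Without WT replicate 2 and FL replicate 3 the log2 fold change was 0.38 with an adjusted limma p of 0.423, and after quantile normalisation of all livers it was 0.19.

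Fold changes of hepatocyte transcripts had the same sign as that of *Hamp*. All 7 hepatocyte markers (*Alb*, *Ttr*, *Apoa1*, *Apob*, *Serpina1a*, *Cps1*, *Tat*) had positive log2 fold changes, with a median of 0.28 beside 0.0069 for all genes and none past the adjusted threshold. Their summed normalised counts were 1502600 to 1978823 in FL and 1289202 to 1548820 in WT livers. In bulk RNA, more or fewer cells of a type and more or less RNA per cell cannot be told apart. Divided by *Ttr* (transthyretin) of the same liver, *Hamp* was 33.2%, 28.0%, 33.3% and 33.3% in FL livers and 32.7%, 26.9% and 35.7% in WT livers. The groups overlapped, the log2 difference was 0.01, and the exact permutation p was 0.914. *Ttr* itself had a log2 fold change of 0.39, near the 0.40 of *Hamp*. The 7 markers ranged from 0.09 (*Apob*) to 0.65 (*Apoa1*), so the ratio depends on the marker taken. Relative to *Alb* (albumin) the log2 difference was 0.09 (exact permutation p = 0.486), and relative to the mean of the 7 markers it was 0.13 (exact permutation p = 0.343). These ratios were chosen after the hepatocyte markers had been seen, and the part of hepatocyte content in the *Hamp* difference was not tested further.

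*Hamp2* encodes the second mouse hepcidin, on chr7:30922372-30924681 beside *Hamp*. It was at 181, 143, 118 and 183 normalised counts in FL livers and at 105, 199 and 98 in WT livers. WT replicate 2 was the highest liver of all and FL replicate 3 the lowest FL liver, so the groups overlapped. Between genotypes its log2 fold change was 0.27 (SE 0.28, 95% interval −0.37 to 0.92), with an exact permutation p of 0.371. Single WT livers decided its size, since it was 0.60 without WT replicate 2, 0.14 without WT replicate 1 and 0.09 without WT replicate 3. Without both livers that stood apart it was 0.72 (SE 0.16, 95% interval 0.37 to 1.08), with an adjusted limma p of 0.193. Per kilobase, *Hamp* exceeded *Hamp2* by 97.1 to 228 times in single livers. Of the 36-base stretches of *Hamp* transcripts, 28.8% also occur in *Hamp2*, and of those of *Hamp2* 19.7% occur in *Hamp*. Reads from such stretches could be assigned to either gene, so the *Hamp2* values are uncertain. A non-coding gene, *Gm44662*, overlaps both on the opposite strand, and the strand setting of the counting was not given in the sources used here.

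The promoters of both hepcidin genes are set side by side because the genes are neighbours with very unequal levels. The windows are from RefSeq (GRCm38.p6, minus strand), at chr7:30944094-30944153 for *Hamp*, from −124 to −65 of the start site, and at chr7:30924243-30924302 for *Hamp2*, from −121 to −62. Capitals mark the core of a BMP response element, GGCGCC, and a STAT3 element, TTCTTGGAA, both searched on either strand.
Hamp: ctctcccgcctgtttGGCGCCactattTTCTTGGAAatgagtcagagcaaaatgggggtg
Hamp2: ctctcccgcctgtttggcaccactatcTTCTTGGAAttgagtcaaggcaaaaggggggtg
The windows differ at 6 of 60 bases, counted from 1 at the 5' end with the *Hamp* base first, and 1 of these, G19A, falls inside the BMP response element core. That core was found in 9.59% of 32851 RefSeq promoters, and among these genes in those of *Hamp* and *Tfrc*. The STAT3 element was found in 0.365%, and among these genes in those of *Hamp* and *Hamp2*. The letters CAGGTG of an E-box were found in 17.2%, among them *Alas1*, *Fth1*, *Hamp*, *Hamp2* and *Tfrc*. The promoter table held no entry for *Slc40a1* and *Id1*.

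The iron sensors came next in role. *Tfr2* encodes transferrin receptor 2, which senses transferrin-bound iron on hepatocytes and promotes hepcidin expression. It was at 8400, 8592, 9137 and 7773 normalised counts in FL livers and at 7745, 7033 and 7419 in WT livers. Every FL liver was above every WT liver, but FL replicate 4 and WT replicate 1 were nearly level. The log2 fold change was 0.19 (SE 0.10, 95% interval −0.05 to 0.44), with an exact permutation p of 0.0571. It was 0.12 (95% interval −0.07 to 0.31) without the 2 livers that stood apart. Relative to *Alb*, *Ttr* and the mean of the 7 hepatocyte markers the sign of *Tfr2* turned. The log2 differences were −0.11 against *Alb* (exact permutation p = 0.486), −0.19 against *Ttr* (exact permutation p = 0.286) and −0.08 against the mean (exact permutation p = 0.629). The sign depends on the marker taken. *Apob* (0.09), *Cps1* (0.10) and *Tat* (0.11) had smaller log2 fold changes than *Tfr2*, while *Alb*, *Ttr*, *Apoa1* and *Serpina1a* had larger ones (0.28 to 0.65).

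*Hfe* encodes the MHC-like protein that is lost in the common form of hereditary haemochromatosis. It was at 918, 877, 939 and 872 normalised counts in FL livers and at 833, 1071 and 847 in WT livers. Only WT replicate 2 exceeded 939, and the groups overlapped. For *Hfe* the log2 fold change was −0.02 (SE 0.12, 95% interval −0.29 to 0.26), and it was 0.10 without WT replicate 2 and 0.08 without both livers that stood apart. *Tfrc*, the receptor that takes up transferrin-bound iron, was at 342, 294, 301 and 252 in FL livers and at 393, 286 and 283 in WT livers. WT replicate 1 was its highest liver, and the log2 fold change was −0.10 (SE 0.16, 95% interval −0.48 to 0.28), or 0.05 without WT replicate 1 and −0.18 without WT replicate 2 and FL replicate 3. Per kilobase, *Tfr2* exceeded *Tfrc* by 31.4 to 49.1 times in single livers.

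*Id1* is a direct target of BMP and SMAD signalling and follows hepcidin induction by iron in the liver. Its normalised counts were 674, 386, 254 and 770 in FL livers and 691, 484 and 537 in WT livers. FL livers included both the lowest and the highest value, and the range over the 7 livers was 3.03-fold, the widest of the 10 genes. Its log2 fold change was −0.25 (SE 0.37, 95% interval −1.11 to 0.61), and it was 0.05 without FL replicate 3 and −0.06 without WT replicate 2 as well. The fold changes of *Hamp* and *Id1* had opposite signs, and neither gene passed the adjusted threshold.

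Storage is the task of ferritin, a shell of heavy (*Fth1*) and light (*Ftl1*) chains. *Fth1* was at 72878, 73514, 43018 and 75473 normalised counts in FL livers and at 76685, 27321 and 76457 in WT livers. FL replicate 3 and WT replicate 2 were far below the other 5 livers, which lay within 72878 to 76685 in both genotypes. The log2 fold change was 0.25 (SE 0.40, 95% interval −0.67 to 1.17), with an exact permutation p of 0.714. It was −0.25 without WT replicate 2 and −0.05 (95% interval −0.31 to 0.21) without both of these livers.

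*Ftl1* was at 28274, 30293, 25859 and 33027 normalised counts in FL livers and at 24517, 22612 and 26127 in WT livers. FL livers were the higher ones except FL replicate 3, which lay below WT replicate 3. The log2 fold change was 0.26 (SE 0.14, 95% interval −0.05 to 0.58), with an exact permutation p of 0.0857, and without FL replicate 3 and WT replicate 2 it was 0.27 (95% interval 0.03 to 0.51), with an adjusted limma p of 0.461. Of its 36-base stretches, 90.5% occur in transcripts of 28 other genes, and 75.5% in the pseudogene *Ftl1-ps1* alone, so its level depends on how the authors' counting shared such reads. The ratio of *Fth1* to *Ftl1* per kilobase was 1.73 to 2.69 in FL and 1.26 to 3.26 in WT livers, with the lowest ratios in WT replicate 2 and FL replicate 3.

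*Slc40a1* encodes ferroportin, the only known iron exporter of mammalian cells and the target of hepcidin. It was at 2099, 2007, 3501 and 1964 normalised counts in FL livers and at 1895, 3760 and 1725 in WT livers. The same 2 livers that were lowest for *Fth1*, FL replicate 3 and WT replicate 2, were here the highest. Between genotypes the log2 fold change was 0.01 (SE 0.31, 95% interval −0.71 to 0.73), with an exact permutation p of 1. It ranged from −0.20 to 0.36 when single livers were left out, with negative values without FL replicate 3 (−0.19), WT replicate 1 (−0.13) or WT replicate 3 (−0.20), and without both livers that stood apart it was 0.16 (95% interval −0.03 to 0.35). In Kupffer cells, which recycle iron from red cells, *Slc40a1* is also active, and the summed Kupffer and macrophage markers (10 of 10 in the table, 3 higher and 7 lower in FL) were highest in WT replicate 2, at 15062 beside 7849 to 12219 in the others, while FL replicate 3 was at 10716. This sum mixes markers that went opposite ways in these livers. *Hmox1* and *Cd163*, which are in the list, were the lowest of their genotype in FL replicate 3 and WT replicate 2 (*Hmox1* at 2770 and 2327). *Clec4f*, *Vsig4*, *Cd5l*, *Marco*, *Adgre1* and *Csf1r* were the highest of their genotype in both (*Clec4f* at 2312 and 3191). *Timd4* and *Cd68* were so in WT replicate 2 only. In FL replicates 1 and 2, whose sums were 12219 and 12122, *Hmox1* was at 5544 and 5740. The part of Kupffer cells in the *Slc40a1* values was not tested.

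**Figure D3:**
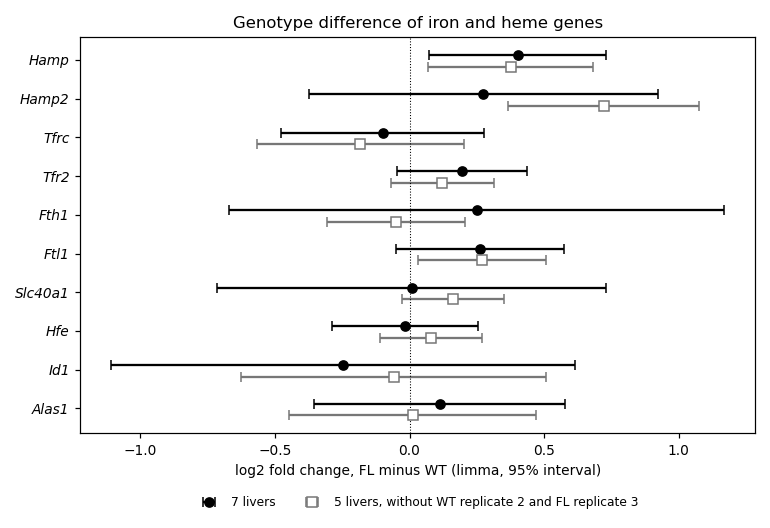
log2 fold change (FL minus WT, limma) of each gene with its 95% interval, for all 7 livers (filled circles) and for the 5 livers left without WT replicate 2 and FL replicate 3 (open squares). The interval of *Hamp* lies above 0 in both, those of *Hamp2* and *Ftl1* only over the 5 livers, and no adjusted p passed the threshold in either.

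Over the 5 livers, 3 of the 10 genes (*Hamp*, *Hamp2* and *Ftl1*) had an unadjusted limma p under 0.05, all higher in FL, beside 1215 of all genes (9.69%). FL replicate 3 and WT replicate 2 were both the highest of their genotype for 2 of the 10 genes (*Slc40a1*, *Hfe*), beside 28.6% of all genes. They were both the lowest for 3 (*Fth1*, *Ftl1*, *Id1*), beside 28.8% of all genes. In the cycling cell markers, which were summed to 91 to 141 in the other 5 livers, WT replicate 2 was at 1241 and FL replicate 3 at 335. Their part in the values of the iron genes was not tested.

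Heme synthesis begins with 5-aminolevulinate synthase, encoded by *Alas1* in hepatocytes and by *Alas2* in red cell precursors. *Alas1* was at 8263, 10637, 12271 and 15129 normalised counts in FL livers and at 10489, 9590 and 11346 in WT livers. FL livers spanned the WT range on both sides, from FL replicate 1 to FL replicate 4. For *Alas1* the log2 fold change was 0.11 (SE 0.20, 95% interval −0.35 to 0.58), with an exact permutation p of 0.629, and it was −0.03 without FL replicate 4 and 0.01 without WT replicate 2 and FL replicate 3. The antisense gene *4930500F10Rik* overlaps *Alas1* and shares 9.3% of its 36-base stretches. *Alas2* was at 1482, 1471, 1406 and 1298 in FL livers and at 1261, 995 and 1526 in WT livers. WT replicate 3 was its highest liver, and its log2 fold change was 0.19 (SE 0.15). Without WT replicate 2 this was 0.03 and without WT replicate 3 it was 0.33. Per kilobase *Alas1* exceeded *Alas2* by 3.68 to 7.69 times.

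Blood transcripts are set beside *Alas2*, which red cell precursors express. Of 9 markers of red cell precursors and blood, 6 were in the table and 5 were tested, and all 5 had positive log2 fold changes (median 0.63). *Alas2* itself is among these 5. The 4 globin genes had an unadjusted limma p under 0.05, beside 3.2% of all genes, and had every FL liver above every WT liver, beside 2.77% of all genes. An example is *Hbb-bs*, at 1370, 1234, 1230 and 940 in FL livers and 673, 817 and 803 in WT livers. The summed list, which includes *Alas2*, was 2764 to 3605 in FL and 2280 to 2788 in WT livers. The only overlap was WT replicate 3 (2788) above FL replicate 4 (2764), and WT replicate 3 had the highest *Alas2* (1526). The membrane protein marker *Slc4a1* was at 0 to 7. None of the 5 tested markers passed the adjusted threshold. The part of blood in the *Alas2* values was not tested.

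The later enzymes of heme synthesis were at lower levels per kilobase than *Alas1*. *Alas1* was at 3747 ± 934 (SD, n = 4) in FL and 3391 ± 284 (SD, n = 3) in WT livers, and *Alad*, which joins aminolevulinate into a pyrrole, at 1040 ± 86.8 in FL and 1088 ± 158 in WT livers. *Fech*, ferrochelatase, which inserts iron into the ring, was at 259 ± 26.1 in FL and 277 ± 40.1 in WT livers. For *Fech* the log2 fold change was −0.09 (SE 0.13), and it was 0.01 without WT replicate 2. Of the 10 genes listed for heme synthesis beside *Alas1*, 5 were higher and 5 lower in FL, the median log2 fold change was 0.01, and none had an unadjusted p under 0.05.

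Hepcidin control was described by 23 further genes. In FL livers 15 were higher and 8 lower, with a median log2 fold change of 0.07, and none passed the adjusted threshold. The only one with an unadjusted limma p under 0.05 was *Fgl1*, a secreted hepatocyte protein that opposes BMP signals to hepcidin. *Fgl1* was at 4651, 5094, 6118 and 5926 normalised counts in FL livers and at 4404, 3446 and 3155 in WT livers. Every FL liver was above every WT liver, beside 2.77% of all genes. For *Fgl1* the log2 fold change was 0.58 (SE 0.16, 95% interval 0.22 to 0.94), with an exact permutation p of 0.0286, the smallest possible. Its adjusted limma p was 0.999.

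The ligand *Bmp6*, made by the liver endothelium, was at 78, 90, 99 and 81 normalised counts in FL livers and at 88, 92 and 121 in WT livers. These overlap, with a log2 fold change of −0.20 (SE 0.17), or −0.05 without WT replicate 3. Hemojuvelin, the BMP co-receptor (*Hjv*, named *Hfe2* in the annotation), was at 447, 515, 976 and 562 in FL livers and at 359, 1511 and 545 in WT livers. FL replicate 3 and WT replicate 2 were again the highest of their genotype, and the log2 fold change of *Hfe2* was −0.16 (SE 0.48), or 0.43 without WT replicate 2. *Tmprss6*, the protease that cleaves hemojuvelin, was at 8444 to 9338 in FL and 8198 to 8936 in WT livers. These ranges overlap, and its log2 fold change was 0.07 (SE 0.10). The inhibitory SMAD gene *Smad7* was at 1029, 792, 400 and 837 in FL livers and at 957, 434 and 678 in WT livers. Here the same 2 livers were the lowest, and the log2 fold change was 0.14 (SE 0.36), with −0.03 without FL replicate 1, −0.16 without WT replicate 2 and 0.41 without WT replicate 1.

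Inflammatory input was described by 10 acute phase genes. All 10 had positive log2 fold changes, beside 51.6% of all genes, with a median of 0.37, and their sum was 220112 to 355681 in FL and 166930 to 283862 in WT livers. Only *Fgg*, a fibrinogen chain, had an unadjusted limma p under 0.05, beside 3.2% of all genes, and none passed the adjusted threshold. Its part in the *Hamp* difference was not tested.

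Iron uptake, storage and export held 16 further genes, of which 10 were higher and 6 lower in FL, with a median log2 fold change of 0.07 and none with an unadjusted p under 0.05. *Trf*, transferrin, the iron carrier of plasma, was at 37355, 38928, 48846 and 44200 normalised counts in FL livers and at 33194, 39528 and 31753 in WT livers. WT replicate 2 lay inside the FL range, and the log2 fold change was 0.28 (SE 0.16). *Slc39a14*, ZIP14, which takes up iron not bound to transferrin, was at 10926, 10524, 6425 and 10470 in FL livers and at 9978, 4552 and 7987 in WT livers. Its log2 fold change was 0.39 (SE 0.30), with 0.07 without WT replicate 2 and 0.64 without WT replicate 1.

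Iron regulatory proteins and other IRE transcripts held 6 genes, of which 1 was higher and 5 lower, with a median log2 fold change of −0.08. Heme scavenging, breakdown and transport held 14 genes, of which 5 were higher and 9 lower, with a median of −0.04. Among them *Hmox1*, heme oxygenase, which breaks heme down and frees its iron, was at 5544, 5740, 2770 and 3106 in FL livers and at 6201, 2327 and 2605 in WT livers. Livers of either genotype lay at both ends of this range, and the log2 fold change was 0.28 (SE 0.40), with 0.02 without WT replicate 2, 0.10 without WT replicate 3 and 0.72 without WT replicate 1. Iron-sulfur cluster assembly held 10 genes, of which 6 were higher and 4 lower, with a median of 0.04. *Nfu1* was named because it alone in that list had every FL liver above every WT liver. It was at 301, 323, 332 and 326 in FL livers and at 265, 296 and 298 in WT livers. Its log2 fold change was 0.16 (SE 0.11), with an exact permutation p of 0.0571 and an adjusted limma p of 0.999. Of the 79 list genes, 2 (*Fgl1* and *Nfu1*) had every FL liver above every WT liver, beside 348 of all genes (2.77%). Over all 79 genes of the 6 lists, 42 were higher and 37 lower, with a median of 0.01 beside 0.0069 for all genes, 0 passed the adjusted threshold in limma, and 1 (*Fgl1*) had an unadjusted p under 0.05 where 3.2% of all genes did.

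**Figure D4:**
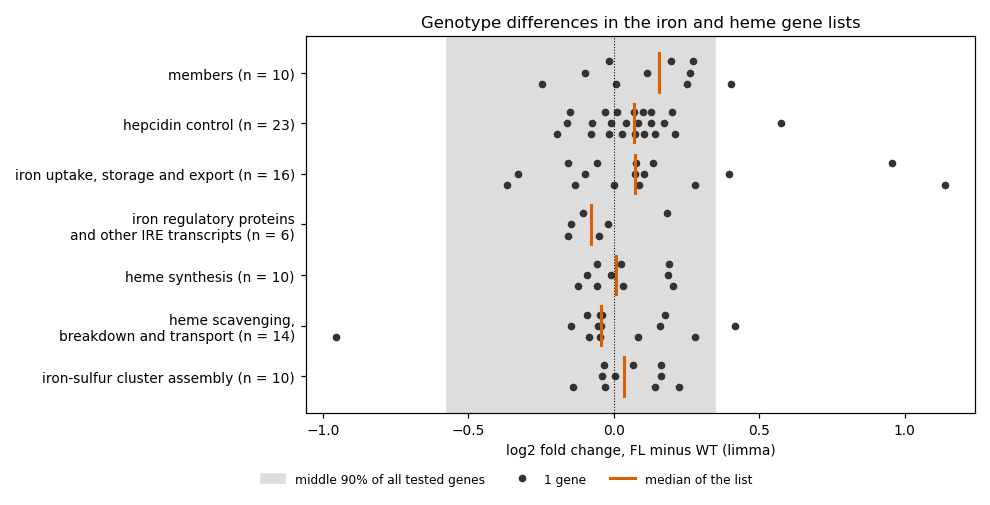
log2 fold change (FL minus WT, limma) of every gene in the 10 members and the 6 lists, with 1 dot per gene and the list median as a vertical line; the grey band spans −0.57 to 0.35, the middle 90% of all tested genes. Medians of the lists lie between −0.08 and 0.07, and that of the members at 0.15.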

How the data were processed

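Polyadenylated liver RNA of 4 FL and 3 WT mice was sequenced from stranded libraries. The authors aligned paired reads with Tophat (version 2.0.13) and Bowtie and counted reads per gene. The submitters' processing notes name both HTSeq and featureCounts and the build name GRCh38, which is a human name, while the identifiers are mouse Ensembl. The authors divided the counts by DESeq2 size factors, and deposited the quotients, the normalised counts, after rounding to whole numbers. The deposited values are thus scores, made by the authors from counts but no longer counts, so no count test was run. No per-sample column was left unused (0).

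Of 14988 rows, 14851 identifiers were kept once each. GENCODE vM21 (GRCm38) gave symbols, coordinates and transcript lengths, taken from the best-supported principal transcript. Genes with a mean of at least 10 were tested by limma version 3.58.1 (R version 4.3.3). The test used log2(normalised count + 1) and moderated the spread along its trend with mean level. This scale understates changes of low genes. The exact tests enumerated all 35 splits in Python version 3.11.15. These limma fits were checked on simulated data first. The simulated livers were independent, with the spread of each gene capped at the median spread. The check therefore does not cover livers that stand apart, such as WT replicate 2 and FL replicate 3. Intervals cover the spread between livers. Replicates of a genotype had equal values in 1.97% to 4.28% of genes, so no pair was treated as a single library.

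The members, lists and alternatives were chosen with earlier results of these data known. Genes named are the 10 members, *Trp53*, *Bmp6*, *Hjv*, *Tmprss6*, *Smad7*, *Trf*, *Slc39a14*, *Alas2*, *Fech*, *Hmox1* and up to 4 genes per list with an unadjusted p under 0.05. Others were named after their values were seen. Alternatives were other pseudocounts, filters and scalings, no trend, robust hyperparameters, the replicate block and left-out livers. Ratios to hepatocyte markers were added after seeing the data.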

Additional observations from a re-analysis of the deposited data

Results flagged for a closer look

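In the 4 FL livers, 1 liver lay far from the other 3 for 3 of the 21 genes named by rule, where chance gives about 1.05, and in all 3 it was FL replicate 3. The same held in 903 of all 12545 tested genes (7.2%), and in 624 of these genes (4.97% of those tested) the liver was FL replicate 3, which stood apart over the whole table, and whether the count is particular to the named genes was not tested. *Fth1*, the ferritin heavy chain, was at 43018 normalised counts in FL replicate 3 and at 72878 to 75473 in the other FL livers. *Slc40a1*, ferroportin, was at 3501 there and at 1964 to 2099 in the others. *Slc39a14*, the iron transporter ZIP14, was at 6425 there and at 10470 to 10926 in the others. The WT liver that stood apart, WT replicate 2, lay on the same side of its group for each of them, at 27321, 3760 and 4552. The cause was not tested.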

How the results depend on the processing

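The count of all genes called moved from 2 to 0 with 5 as the pseudocount, filters of 10 in every liver or of a mean of 50, or no trend (404, 356, 316 and 465 genes at an unadjusted p under 0.05), to 1 with quantile normalisation and to 6 over the 5 livers without WT replicate 2 and FL replicate 3, and ranged from 0 to 5 with single livers left out (246 to 747 at an unadjusted p under 0.05). The replicate block gave 0 calls (110 at an unadjusted p under 0.05). The deviations of same-numbered livers correlated at 0.44, −0.48 and −0.66 for numbers 1, 2 and 3. WT replicate 2 and FL replicate 3, which stood apart, enter the values for numbers 2 and 3. These correlations therefore cannot show whether livers with the same number belong together. No member and no pathway gene was called in any of the 18 alternatives. *Hamp*, *Hamp2*, *Tfr2* and *Ftl1* kept their sign in all of these, with *Hamp* from 0.19 to 0.48, and the other 6 members did not. The unadjusted limma p of *Hamp* rose above 0.05 with quantile normalisation (0.236), upper quartile scaling (0.0514) and the replicate block (0.138). The same held without FL replicate 4 (0.0526), WT replicate 1 (0.0614) or WT replicate 3 (0.0532). Quantile normalisation gave −0.041 for *Slc40a1*, −0.019 for *Alas1* and −0.026 for *Tmprss6*, upper quartile scaling −0.023 for *Slc40a1*, and the replicate block 0.0002 for *Hfe* and −0.027 for *Alas1*. Replicate number 4 exists only in FL, so FL replicate 4 does not enter the genotype estimate under the block. The block therefore gave the same fold changes as leaving out that liver. The 5 livers gave −0.050 for *Fth1*, 0.081 for *Hfe* and 0.19 for *Hfe2*. Leaving out single livers gave −0.18 to 0.055 for *Tfrc*, −0.25 to 0.50 for *Fth1*, −0.20 to 0.36 for *Slc40a1*, −0.080 to 0.10 for *Hfe*, −0.48 to 0.053 for *Id1*, −0.027 to 0.26 for *Alas1*, −0.61 to 0.43 for *Hfe2*, −0.16 to 0.42 for *Smad7* and −0.19 to 0.014 for *Fech*. Ratios to *Alb*, *Ttr* and the mean of the 7 markers gave −0.11, −0.19 and −0.081 for *Tfr2*. The cause of these moves was not tested. With 4 and 3 livers, the 95% intervals of the members reached 0.24 (*Tfr2*) to 0.92 (*Fth1*) to either side on the log2 scale, which limits what could be detected.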

Other observations

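Some genes of heme scavenging and transport differed widely between livers of the same genotype. The 3 named here were picked once their values were known. *Flvcr2*, a transporter of the plasma membrane, was at 179 normalised counts in FL replicate 3 and 31 to 37 in the other FL livers, and at 345 in WT replicate 2 and 50 to 63 in the other WT livers. *Hpx*, hemopexin, which binds free heme in plasma, was at 169915 and 140652 in these 2 livers and at 68684 to 84829 in the other 5. *Cd163*, the haemoglobin receptor of macrophages, was at 140 and 190 in them and at 380 to 576 in the other 5. Of the 79 list genes, both livers were the highest of their genotype for 20 and the lowest for 21, beside 28.6% and 28.8% of all genes.

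Over the 5 livers without these 2, 10 of the 79 list genes had an unadjusted limma p under 0.05, 8 higher and 2 lower in FL, beside 9.69% of all genes, and none passed the adjusted threshold. *Trf* was among them, with a log2 fold change of 0.30 (SE 0.11) and an adjusted p of 0.432, and so was *Slc39a14*, with 0.25 (SE 0.11) and an adjusted p of 0.484.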
